A study of Mus musculus with 5 samples.

Results

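Angiopoietin ligands, their receptor and endothelial identity genes were examined in mouse soleus muscle by taking every probe of the array that the platform annotation assigns to Angpt1, Angpt2, Tek, Pecam1, Cdh5 or Cd34. This gave 6 probes, 1 for each of the 6 genes, out of 223 probes on the array, of which 205 have a gene name and represent 203 genes. The samples were the soleus, a slow postural calf muscle, of 5 C57Bl/6 mice whose titles carry the abbreviation wt and which were reloaded for 7 days. Reloading means that the muscle bears weight again after a period without load. The labels number the animals 1, 3, 4, 5 and 6 and do not give their age. The titles also carry the abbreviation HUR, which the labels do not explain, and no description of the unloading is given beyond it. All 5 belong to this single group, so no unloaded or untreated muscle was compared here, and the results describe differences between the 5 mice.

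Angiopoietins are secreted ligands of Tie2, the receptor tyrosine kinase of endothelial cells that the gene Tek encodes. Angpt1, made largely by perivascular and mesenchymal cells, activates Tie2 and keeps vessels quiescent and tightly sealed. Angpt2, made and stored by endothelial cells themselves, acts in many settings as a partial agonist or antagonist of Tie2 and is induced when vessels are remodelled. The balance between both ligands is therefore often used as a view of vessel remodelling, while the adhesion molecules Pecam1 (CD31) and Cdh5 (VE-cadherin) are used as a view of vessel content. Cd34 is a sialomucin of capillary endothelium that is also carried by satellite cells, the muscle stem cells, and by interstitial progenitor cells. In whole muscle, fewer endothelial cells and less RNA per endothelial cell cannot be told apart.

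The deposited values were linear intensities in arbitrary units, and the total per array ran from 70.8 to 137. Each array had values below 0, and the size of its lowest value (0.0168, 0.0059, 0.0041, 0.0103 and 0.0109 on the arrays of mice 1, 3, 4, 5 and 6) is used below as a measure of background. The array of mouse 1 stood apart from the rest. Its mean Spearman rank correlation with the other arrays, over the 147 probes above 0 on all 5 arrays, was 0.878, against 0.941 to 0.947 for the other mice. Results that rest on mouse 1 are therefore also given without it. Of the markers of muscle fibres, 6 of 6 were above their array's background on every array. The 5 genes of the blood and immune list on the array (Il1b, Il6, Csf3r, Mmp8 and Mmp9) were at or below 0 in every mouse. Csf2ra and Csf2rb2, cytokine receptor genes outside that list, were above 0 on all 5 arrays. The list therefore does not show that blood or immune transcripts were absent.

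The 3 endothelial identity genes were well above the background in every mouse, and Angpt2 was so in every mouse but mouse 1, where it was just above it. Angpt1 and Tek were below the background in most mice. All 6 genes were above 0 on all 5 arrays, which held for 65.9% of the 223 probes. Above the size of the lowest value on every array were 4 of the 6, compared with 45.3% of all probes.

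Of the ligands, Angpt2 had deposited intensities of 0.0215, 0.0503, 0.0828, 0.0855 and 0.101 in mice 1, 3, 4, 5 and 6. Mouse 1 was the lowest and was also the only mouse near its background, at 1.28 times the size of its lowest value against 8.30 to 20.2 times in the other mice. Angpt1 was at 0.0051, 0.0010, 0.0049, 0.0005 and 0.0033 in mice 1, 3, 4, 5 and 6. It exceeded the background in mouse 4 alone, at 1.20 times, and was at 0.0485 to 0.304 times the background in the other 4. Angpt4, another angiopoietin ligand on the array, was above 0 in 3 mice and above the background in none.

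The receptor gene Tek was at 0.0019, 0.0065, 0.0144, 0.0009 and 0.0107 in mice 1, 3, 4, 5 and 6. It exceeded the background in mice 3 and 4, at 1.10 and 3.51 times, and was just below it in mouse 6, at 0.982 times. In mice 1 and 5 it was at 0.113 and 0.0874 times the background. Low signals of this kind bound the transcript by the background and do not show that it was absent.

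Among the endothelial identity genes, Pecam1 was at 0.117, 0.0854, 0.147, 0.201 and 0.264 in mice 1, 3, 4, 5 and 6. Cdh5 was at 0.104, 0.0998, 0.134, 0.128 and 0.225 in the same order. Cd34 was at 0.135, 0.105, 0.131, 0.112 and 0.243. These 3 genes were at least 6.21 times the background on every array, and each was highest in mouse 6 and lowest in mouse 3 as deposited. Since the brightness of whole arrays adds to such differences, the mice were also compared after quantile normalisation, which gives all arrays the same distribution of signals.

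**Figure D1:**
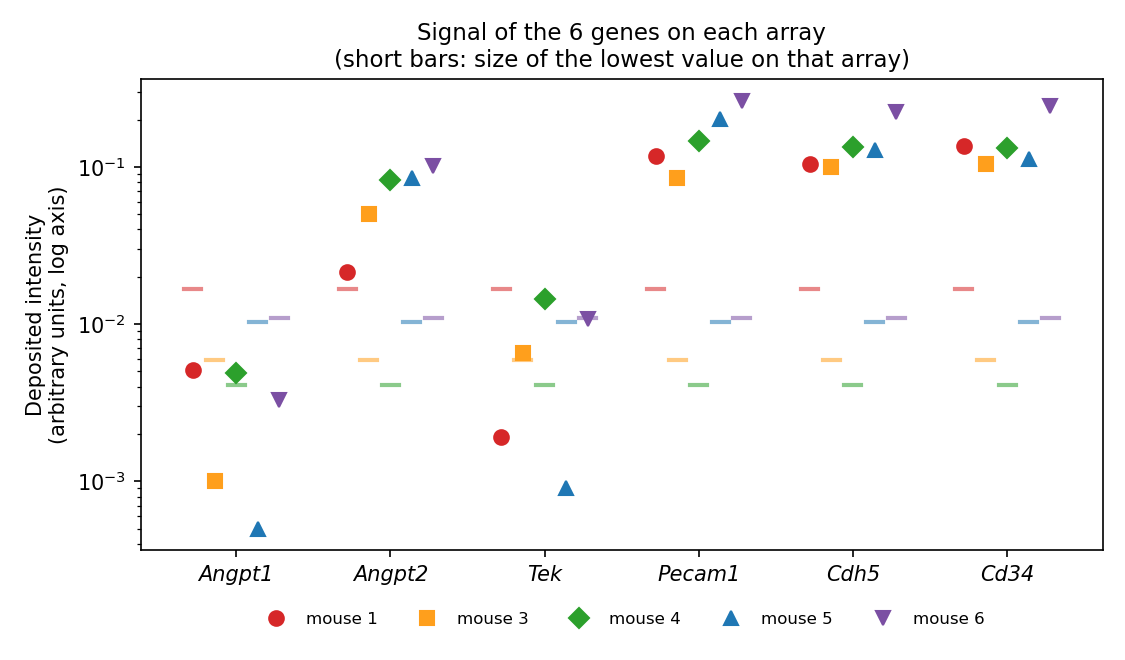
Deposited intensity (arbitrary units, log axis) of each of the 6 genes on the arrays of mice 1, 3, 4, 5 and 6, with 1 point per array and a short bar of the same colour at the size of the lowest value on that array. Pecam1, Cdh5, Cd34 and Angpt2 lie above their bars in all 5 mice, Angpt1 in 1 mouse and Tek in 2 mice.

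After quantile normalisation, Angpt2 differed widely between mice and Cd34 very little. Angpt2 was at 0.0169, 0.0582, 0.0936, 0.118 and 0.0671 in mice 1, 3, 4, 5 and 6, with a mean of 0.0709 ± 0.0383 (SD, n = 5) and a CV (SD divided by mean, in percent) of 54.1%. The highest mouse, 5, was 7.01 times the lowest, mouse 1. Without mouse 1 the CV of Angpt2 was 33.2%.

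Pecam1 was at 0.104, 0.101, 0.184, 0.235 and 0.168 in the same mice, with a mean of 0.158 ± 0.0568 (SD, n = 5) and a CV of 35.9%. Cdh5 was at 0.0973, 0.121, 0.150, 0.150 and 0.138, with a mean of 0.131 ± 0.0224 (SD, n = 5) and a CV of 17.1%. For both genes the lowest pair was mice 1 and 3. Cdh5 had a CV of 36.7% as deposited, 31.9% scaled to the array total and 10.0% without mouse 1.

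Cd34 was at 0.132, 0.132, 0.144, 0.138 and 0.149, with a mean of 0.139 ± 0.00755 (SD, n = 5) and a CV of 5.43%, so that the highest mouse was 1.13 times the lowest. That narrow spread depended on the scaling: the CV was 12.1% with each array divided by its median, 26.3% by its total and 38.5% as deposited, and it was 3.49% without mouse 1. The dim genes had CVs of 48.9% for Angpt1 and 81.3% for Tek, and that of Angpt1 was 83.8% scaled to the total and 32.6% without mouse 3. Tek without mouse 4 had a CV of 52.6%. The median CV of the 6 genes was 42.4%, and that of all 146 tested probes was 33.1% (quartiles 19.3% and 44.3%).

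No gene of the 6 was called wider or narrower in its spread when limma set the log2 variance of each probe against a trend in mean signal. Benjamini-Hochberg adjustment over 146 probes left 0% of all probes called wider and 0% called narrower. At an unadjusted p below 0.05, 7 probes (4.79%) were wider and 8 (5.48%) narrower than the trend (limma). Cd34 had an SD of 0.191 times the trend (limma, unadjusted p = 0.0036 for narrower, adjusted p = 0.34). Across the alternative settings its adjusted p ran from 0.30 to 0.90. Angpt2 had an SD of 2.48 times the trend (limma, unadjusted p = 0.048 for wider, adjusted p = 0.89, range 0.67 to 0.91). In the other 4 genes the SD was 0.640 to 1.34 times the trend.

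Mice 1 and 3 had the lowest signal pair of the 5 in most of the brighter genes. This held for Angpt2, Pecam1, Cdh5 and Cd34 after quantile normalisation and with scaling to the array median or total, and for the first 3 of these genes as deposited. Among the 140 named probes above 0 on all arrays, mice 1 and 3 were the lowest pair in 19.3% after quantile normalisation, 15.7% with median scaling, 22.1% with total scaling and 11.4% as deposited. No test was made of this order, since the mice carry the same label.

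A ratio of signals within an array does not change when the whole array is brighter or dimmer, so the ratios below were taken on the deposited values. The absolute size of such a ratio depends on both probes, and only its differences between mice are described. Spread is given as the SD of the log2 ratio over the 5 mice.

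The 3 endothelial identity genes differed less in proportion to each other, with SDs of 0.21 to 0.45, than Angpt2 did to any of them, with SDs of 0.67 to 0.88. Without mouse 1 this order did not hold, since Angpt2 to Pecam1 was then at 0.31 and Pecam1 to Cdh5 at 0.36. The ratio of Cd34 to Cdh5 was 1.30, 1.05, 0.979, 0.877 and 1.08 in mice 1, 3, 4, 5 and 6, which is an SD of 0.21 and a highest value 1.48 times the lowest. Ordered from the smallest SD against Cdh5, Cd34 was number 3 of the 137 other named genes above 0 on all arrays, where the median SD was 0.59 and the quartiles were 0.45 and 0.87. Without mouse 1 it was 0.13, and the median over the 137 genes was 0.41.

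The ratio of Pecam1 to Cdh5 was 1.12, 0.856, 1.09, 1.58 and 1.18, with an SD of 0.31. Mouse 5 was highest and mouse 3 lowest, 1.84 times apart, and the SD was 0.20 without mouse 5. Pecam1 ranked 14th smallest in SD against Cdh5 of the 137 genes. Without mouse 1 it ranked 59th, with an SD of 0.36 near the median of 0.41. The ratio of Cd34 to Pecam1 was 1.16, 1.23, 0.895, 0.557 and 0.917, with an SD of 0.45, or 0.23 without mouse 5. Mouse 5 therefore had more Pecam1 signal relative to both Cdh5 and Cd34 than the other mice. Ordered from the smallest SD against Cd34, Pecam1 was only number 48 of the 137 genes, whose median was 0.53. Without mouse 1 it was number 88, with an SD of 0.47 above the median of 0.38. Against Pecam1, Cd34 was number 10, or number 26 without mouse 1.

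Angpt2 was lower relative to each of the 3 endothelial identity genes in mouse 1 than in mice 3, 4, 5 and 6. The ratio of Angpt2 to Cdh5 was 0.206, 0.504, 0.618, 0.670 and 0.450 in the 5 mice, in the order of their numbers. Mouse 1 lay 1.14 below the mean log2 ratio, and the highest mouse was 3.25 times the lowest. Without mouse 1 the highest was 1.49 times the lowest, and the SD went from 0.68 to 0.26.

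The ratio of Angpt2 to Pecam1 was 0.184, 0.589, 0.565, 0.425 and 0.382 in mice 1, 3, 4, 5 and 6. Mouse 1 was again the lowest, but mouse 3 was the highest, so the order of the other mice depended on which endothelial gene was the denominator. The SD was 0.67, and 0.31 without mouse 1. That value without mouse 1 was number 4 of 137 genes against Pecam1, ordered from the smallest SD, and their median was 0.69. Against Cdh5 without mouse 1, Angpt2 ranked 30th. Against Cd34 the ratio of Angpt2 was 0.159, 0.480, 0.632, 0.763 and 0.417, with the highest mouse 4.80 times the lowest, or 1.83 times without mouse 1. The SD against Cd34 without mouse 1 was 0.39, number 71 of 137 genes and near their median of 0.38.

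The low Angpt2 of mouse 1 was not shared by most genes. Relative to Cdh5, 13.9% of the 137 genes had their lowest ratio in mouse 1, and the median gene was 0.67 above its own mean log2 ratio there. Ordered by this deviation in mouse 1, Angpt2 was the 7th lowest of 137 genes. In mouse 5 it was the 135th and in mouse 4 the 125th. Relative to Pecam1, 10.9% of the genes were lowest in mouse 1. After quantile normalisation the deviation of mouse 1 was -1.40 against Cdh5 and -1.28 against Pecam1. With the size of the lowest value of each array added to all its values, which shrinks ratios of dim signals, it was -0.69 and -0.65. The array of mouse 1 had the largest background of the 5 and Angpt2 was close to it there, and the part of background in this low value was not tested further.

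**Figure D2:**
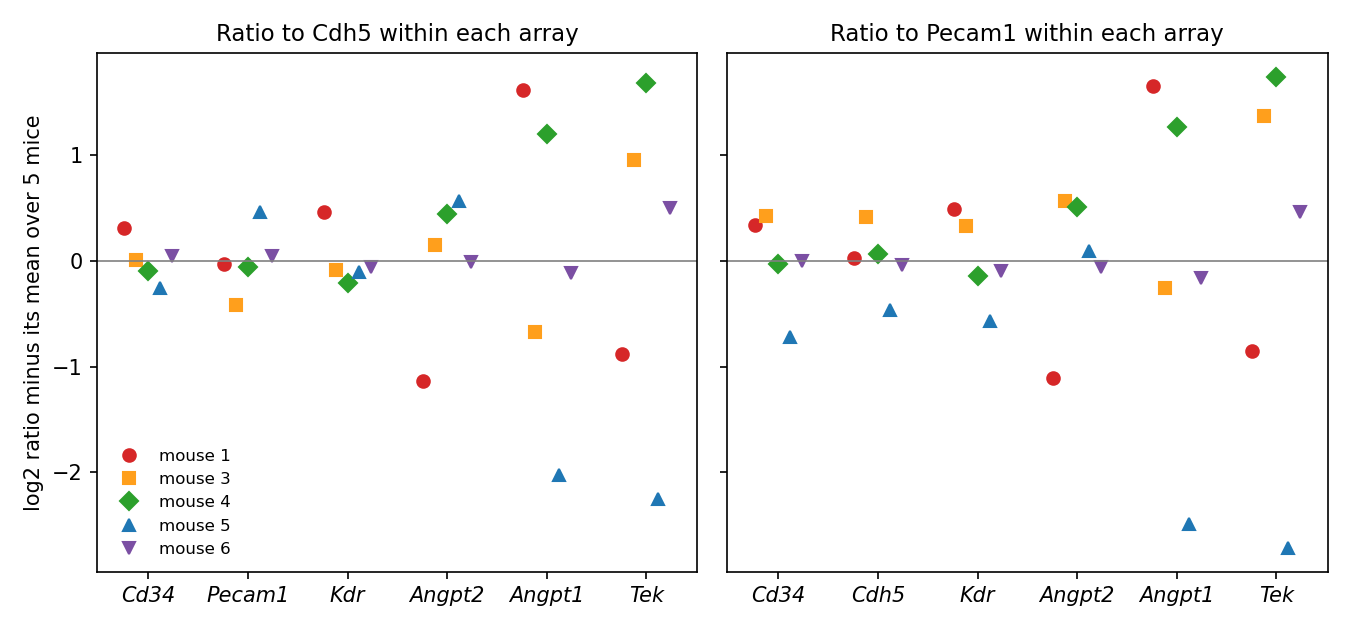
Log2 ratio of each gene to Cdh5 (left) and to Pecam1 (right) within each array, minus its mean over the 5 mice, with 1 point per mouse. Cd34, Kdr and the identity genes stay close to their means, the farthest being Cd34 to Pecam1 at -0.72 in mouse 5, mouse 1 lies 1.14 and 1.11 below the mean for Angpt2, and Angpt1 and Tek scatter over more than 3 log2 units against either denominator.

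The ratio of Angpt2 to Angpt1 could not be measured in 4 of the 5 mice, because Angpt1 did not exceed the background there. Computed from the deposited values it was 4.22, 50.3, 16.9, 171 and 30.6 in mice 1, 3, 4, 5 and 6. These span 40.6-fold, with an SD of 1.97 that was the largest among the 15 pairs of the 6 genes. Only the 16.9 of mouse 4 rests on an Angpt1 signal above its array's background. That signal was only 1.20 times the background, so the 16.9 is uncertain as well. Angpt1 set at the background, with Angpt2 taken as measured, gives approximate lower bounds. They were 8.53, 8.30 and 9.28 in mice 3, 5 and 6. They bound the ratio of both probe signals and not that of the transcripts. In mouse 1, Angpt1 set at the background gives 1.28. That value is not a bound, because Angpt2 was itself close to the background there.

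The order of the mice in this ratio was not stable. Mouse 5 was highest as deposited, mouse 3 after quantile normalisation, and mouse 4 with the background size added, where the SD was 1.03. Mouse 1 was lowest in all 3 of these settings. With the background size added, this would hold for any Angpt1 value above 0 in mouse 1. The reason is that its Angpt2 was only 1.28 times the background. The bounds of mice 3, 5 and 6 differ from each other by little and do not order them. Mouse 1 combines the lowest Angpt2 with the highest deposited Angpt1 value of the 5, and that Angpt1 value of 0.0051 is 0.304 times the background of its array.

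Ratios with the receptor gene Tek were limited in the same way. The ratio of Tek to Cdh5 was 0.0182, 0.0651, 0.108, 0.00705 and 0.0476 in mice 1, 3, 4, 5 and 6, an SD of 1.57, and ranked 130th of 137 genes. The SD was 0.38 with the background size added, and mouse 1, below the mean as deposited, was then the highest of the 5. Tek to Pecam1 had an SD of 1.82, or 0.61 with the background size added. Angpt1 to Cdh5 and Angpt1 to Pecam1 had SDs of 1.47 and 1.63, and 0.66 and 0.70 with it. Mouse 5 widened the ratios to both denominators. Without it the SDs to Pecam1 were 1.15 for Tek and 0.97 for Angpt1, and those to Cdh5 were 1.08 for each. A view of Tek signal relative to Pecam1 in whole muscle was therefore restricted to mice 3 and 4, where Tek exceeded the background. Its ratio to Pecam1 was 0.0761 and 0.0983 there. The cut between mouse 3, at 1.10 times the background, and mouse 6, at 0.982 times, is a narrow one.

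**Figure D3:**
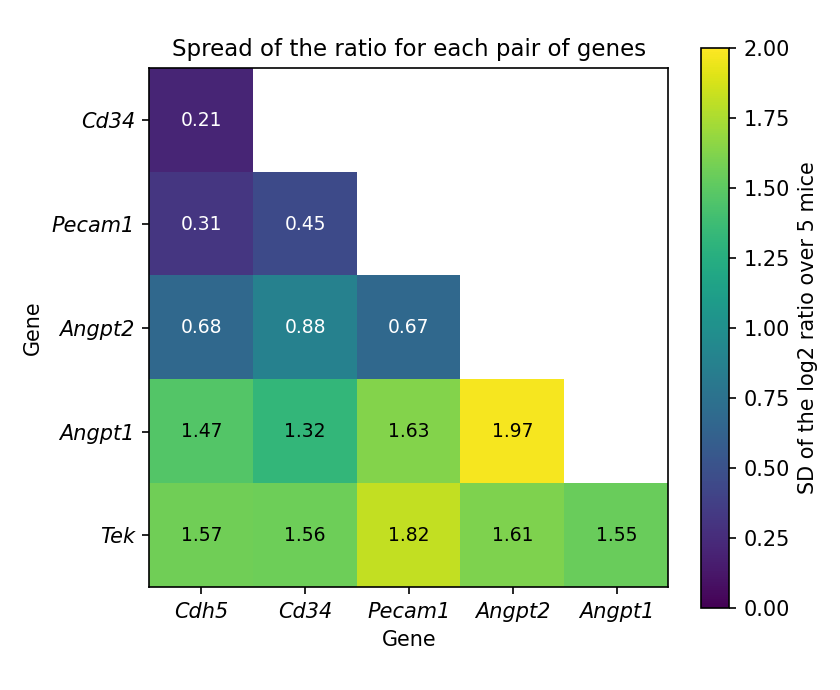
SD over 5 mice of the log2 ratio for each of the 15 pairs of genes, printed in each cell and coloured from 0 to 2. The 3 pairs among Cdh5, Cd34 and Pecam1 have SDs of 0.21 to 0.45, the 3 pairs of Angpt2 with them 0.67 to 0.88, and the 9 pairs with Angpt1 or Tek at least 1.32.

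The spread of Angpt1 and Tek relative to Cdh5 lay among those of other genes of low mean signal, whose SDs were mostly larger than those of bright genes. The limma trend, which takes signal into account, was fitted to the quantile-normalised levels of single probes and not to these ratios. In their own levels, Angpt1 and Tek had SDs of 0.656 and 1.22 times that trend.

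**Figure D4:**
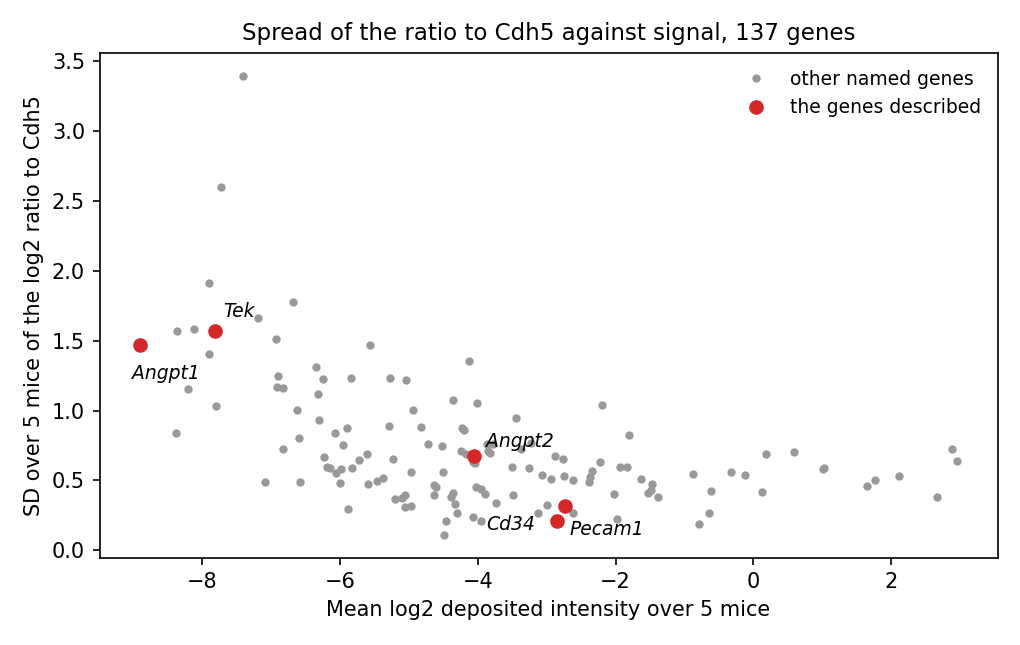
SD over 5 mice of the log2 ratio to Cdh5 (vertical) against the mean log2 deposited intensity (horizontal) for 137 named genes above 0 on all 5 arrays, with the genes described here in red and all others in grey. Cd34 and Pecam1 lie at the lower edge at 0.21 and 0.31, Angpt2 at 0.68 is above the median of 0.59, and the dim genes Angpt1 and Tek lie near 1.5.

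Other endothelial and pathway genes on the array were compared with Cdh5 in the same way. Of the 14 genes of the endothelial list, 9 were on the array, 8 were above 0 in all mice and 5 were above the background on every array, namely Pecam1, Cdh5, Cd34, Kdr and Efnb2. Of 11 further angiopoietin-Tie pathway genes, 3 were on the array: Itgb1, an integrin subunit, was above the background in every mouse, Nos3 (endothelial nitric oxide synthase) was above 0 in every mouse but above the background in none, and Angpt4 was above 0 in 3. Of 10 VEGF and hypoxia genes, 9 were on the array, 4 were above 0 in all mice, and Pgf and Vhl in none.

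Kdr, the main VEGF receptor of endothelium, had a ratio to Cdh5 of 0.532 in mouse 1 and of 0.364, 0.335, 0.359 and 0.371 in mice 3, 4, 5 and 6. The SD was 0.26, and without mouse 1 it was 0.065, the smallest of the 137 genes. Vegfa, the VEGF ligand, had a ratio of 0.356 in mouse 1 and of 0.209 to 0.238 in the other mice. Its SD without mouse 1 was 0.081, number 2 in that order. Both ranks rest on the deposited values. In mice 3, 4, 5 and 6 the log2 deviations of Kdr ran from -0.21 to -0.06 as deposited and from -0.34 to 0.12 after quantile normalisation. Those of Vegfa ran from -0.22 to -0.03 and from -0.31 to 0.08. In mouse 1 Kdr and Vegfa lay 0.46 and 0.55 above their mean log2 ratios to Cdh5, less than the median gene at 0.67, while Angpt2 lay 1.14 below its mean. The ratio of Angpt2 to Kdr was 0.387 there against 1.21 to 1.87 in the other 4 mice. Flt1, another VEGF receptor, was lower relative to Cdh5 in mouse 1, at 0.0288 against 0.148 to 0.360. Its deposited value there, 0.0030, was below the array's background of 0.0168.

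For each gene, the 3 named genes most alike over the 5 mice were those with the smallest SD of the log2 ratio to it. For Cd34 they were Igfbp6 (0.087), Kdr (0.14) and Lamb2 (0.16). For Cdh5 they were Rb1 (0.11), Car3 (0.19) and Cd34 (0.21). For Pecam1 they were Nos2 (0.17), Ang2 (0.29) and Igf1 (0.29). The Nos2 signal was below the background in mouse 1. Ang2 here is a gene of the angiogenin ribonuclease family and not angiopoietin 2.

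For Angpt2 the most alike genes were Scarb2 (0.32), Vegfd (0.39) and Ang (0.43), where Ang is angiogenin. In mouse 1 the Scarb2 signal was below the background and Angpt2 was close to it. Angpt1 and Tek, which were below the background in most mice, had larger SDs to their closest genes. The closest to Angpt1 was Itga2 at 0.47, then Egf (0.92) and Csf2ra (0.96), and those closest to Tek were Top3a (0.73), Efnb1 (1.05) and Ppara (1.08). After quantile normalisation, 1 of these 3 genes remained among the 3 most alike for each of Angpt1, Angpt2, Tek, Pecam1 and Cdh5, and 0 for Cd34. These lists therefore describe the deposited signals of 5 arrays and changed with the scaling.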

How the data were processed

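Expression was measured on 1 array for each of 5 mice. The deposited values are linear array intensities. How the authors scanned the arrays, corrected background and scaled values is not given in the sources used. Probes were named through the platform annotation and updated by gene identifier to the GRCm38.p6 RefSeq table. No genome was given, so positions are not reported.

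Levels were computed from log2 intensities of the 147 probes above 0 on all 5 arrays after quantile normalisation (limma 3.58.1, R 4.3.3). Ratios used deposited intensities. Spread between mice was tested with limma: log2 variance against a robust trend in mean signal, both tails, Benjamini-Hochberg adjustment at 0.05, leaving out the probe brightest on every array (146 tested). The test was tried on simulated data. How often it recovers a spread as wide as that of Angpt2 is not reported here. An uncalled gene can therefore still differ in spread. Several probes of a gene were averaged on the log2 scale. With 5 arrays and no repeat arrays, measurement noise is part of every spread, and the labels do not say how animals were sampled.

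The members and lists were chosen with earlier results of these data known. Named genes were the 6 members, genes of the fixed lists, and the 3 genes most alike each member. Kdr, Flt1 and Vegfa were singled out after their values were seen. Alternatives were other scalings, other filters, a background offset, a joint denominator and leaving out each mouse. Figures were drawn with matplotlib 3.10.9.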

Additional observations from a re-analysis of the deposited data

Results flagged for a closer look

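Of 22 sets of 5 values (signals of the 6 genes and log2 ratios), 3 had a mouse far from the other 4 by Dixon's criterion, and in each case it was mouse 1. All 3 involve Kdr or Vegfa, which were singled out after their values were seen, so the rate of about 1 in 20 that chance gives does not apply to them. None of the sets made of the 6 genes alone met the criterion. The Kdr to Cdh5 ratio was highest in mouse 1, with a gap of 0.775 of the range. The Vegfa to Cdh5 ratio was highest in mouse 1, with a gap of 0.749. In that mouse they lay 0.46 and 0.55 above their mean log2 ratios, and the median of all 137 genes relative to Cdh5 lay 0.67 above its own. The Angpt2 to Kdr ratio was lowest in mouse 1, with a gap of 0.725. The gaps of mouse 1 for Angpt2 to Cdh5, 0.662, and for Angpt2 to Pecam1, 0.628, did not meet the criterion.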

How the results depend on the processing

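The lower Angpt2 of mouse 1 relative to Cdh5 and Pecam1 kept its direction after quantile normalisation and with the background size added. The rest of the 12 alternatives that include this mouse leave out another mouse. Those could not change the direction, because mouse 1 had the lowest of the 5 ratios. The 58 alternatives for the adjusted p of each gene, in each direction, left all 6 genes uncalled by limma. Over all probes, 2 (Thbs2 and Csf2rb2) were called wider as deposited. Leaving out 1 mouse at a time gave 0 to 2 probes called narrower, the 2 being Mb and Cox6a2 without mouse 5 and 0 called wider in each case (6 to 9 at an unadjusted p below 0.05). With the background size added, the SD of the log2 ratio was 1.03 for Angpt2 to Angpt1, 0.44 for Angpt2 to Pecam1 and 0.44 for Angpt2 to Cdh5. Leaving out each mouse gave 0.31 to 0.78 for Angpt2 to Pecam1, 0.26 to 0.78 for Angpt2 to Cdh5 (both lowest without mouse 1) and 0.20 to 0.36 for Pecam1 to Cdh5 (lowest without mouse 5). The causes were not tested. Of 120 alternative SDs of log2 ratios 26 moved by over 1.5 times, and of 58 alternative CVs 14 did. Leaving out the dimmest 25% of probes removed Angpt1 and Tek, so no median CV of the 6 genes was computed in that setting. Signal over background limits every value of Angpt1 and Tek.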

Other observations

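Lists of genes for other cells of the muscle were set against Cdh5 in the same way. The genes of the perivascular list, Pdgfrb, Pdgfb and Des, were all above their own mean log2 ratio in mouse 1 and mouse 3. They were all below it in mice 4, 5 and 6. The list means were 0.96, 0.40, -0.26, -0.55 and -0.56 in mice 1, 3, 4, 5 and 6. Pdgfb encodes a secreted growth factor and Des is also a structural gene of the muscle fibre, so neither marks perivascular cells alone. The fibroblast and fibro-adipogenic genes Pdgfra, Fn1 and Tnc had list means of 0.73, 0.80, -0.72, -0.96 and 0.15 in the same order. The 6 muscle fibre genes, which include Des, had list means of 0.85, 0.19, -0.24, -0.21 and -0.59. Of these 6 genes, 0, 2, 6, 5 and 6 were below their own mean in mice 1, 3, 4, 5 and 6. For comparison, the median of all 137 genes relative to Cdh5 was 0.67, 0.21, -0.19, -0.38 and -0.19. The direction of the perivascular list was therefore not particular to it. Of the satellite cell genes other than Cd34, Myf5 was at or below 0 in every mouse and Myod1 was above 0 in 4.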
